A study of Mus musculus with 12 samples.

Results

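The S100 proteins are small calcium-binding proteins of vertebrates, and 8 of their genes are described here in cultured mouse cortical neurons: S100a1, S100a4, S100a6, S100a10, S100a11, S100a13, S100a16 and S100b. They were taken by gene name from a deposited table of 51912 genes, which holds another 9 S100 genes. The 8 were chosen by measured values of the same libraries, namely the lower level of S100a6 and S100a4 at 48 h than at 16 h. Differences of these members between the times are therefore given as a description without a test, and they are tested for erinacine S against DMSO only. Other genes are also tested between the times.

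Cortical cells from C57BL/6J mouse embryos (E17.5) were dissociated after removal of the meninges, plated, and within hours given 1 µg/mL erinacine S, a compound of the mushroom Hericium erinaceus, or its solvent DMSO. RNA was sequenced in 4 groups of 3 libraries: erinacine S 48 h, DMSO 48 h, erinacine S 16 h and DMSO 16 h. The series design calls the 3 libraries of a group independent repeats without naming litters or dishes, so a p-value here measures no more than how these libraries vary, and that variation may be technical. Expression is given as TPM, a transcript level corrected for length, with each library brought to an equal sum. The read depth behind a TPM value is unknown. All 8 neuronal markers checked, among them Tubb3 and Map2, were above a mean of 1 TPM, and their summed level was 4415 to 4514 TPM with erinacine S at 48 h, 4444 to 4798 with DMSO at 48 h, 3517 to 4163 with erinacine S at 16 h and 3372 to 4037 with DMSO at 16 h. Markers of other cells were also present, and in erinacine S 48 h replicate 1 those of astrocytes, radial glia, the oligodendrocyte lineage, microglia and dividing cells were lower than in any other library of that time. Summed markers of microglia and of the oligodendrocyte lineage were lower in every erinacine S 48 h library than in any DMSO 48 h library.

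S100 proteins carry paired EF-hands, the helix-loop-helix folds that hold a calcium ion. On binding calcium most of them open a surface that grips a partner protein, such as an annexin or a part of the cytoskeleton. Some are also released from cells and act through the receptor for advanced glycation end products, encoded by Ager. In the brain S100b is best known from astrocytes, while S100a10 is known in neurons as the partner of annexin A2 and of serotonin receptors. Most S100a genes lie side by side on mouse chromosome 3.

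The stretches of 250 bases before the annotated start of 4 of the genes are shown because these genes lie on the same chromosome and differ in their levels between the times. S100a6, S100a4 and S100a11 were lower at 48 h in each treatment, whereas S100a16 was higher with DMSO and overlapped between the times with erinacine S. The sequences are from RefSeq on GRCm38.p6, plus strand, at chr3:90612644-90612893 for S100a6, chr3:90603520-90603769 for S100a4, chr3:93520246-93520495 for S100a11 and chr3:90537004-90537253 for the first of the starts listed for S100a16. Capitals mark matches to the letters searched on both strands, which were TATAAA (the TATA box), TGANTCA (bound by AP-1), GGAATG (bound by TEAD factors) and GGGCGG (the GC box).
S100a6: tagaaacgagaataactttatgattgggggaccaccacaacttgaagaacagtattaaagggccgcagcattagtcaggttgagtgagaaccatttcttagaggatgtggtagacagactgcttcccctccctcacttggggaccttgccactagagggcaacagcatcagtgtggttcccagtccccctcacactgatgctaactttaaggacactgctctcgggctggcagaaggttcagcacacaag
S100a4: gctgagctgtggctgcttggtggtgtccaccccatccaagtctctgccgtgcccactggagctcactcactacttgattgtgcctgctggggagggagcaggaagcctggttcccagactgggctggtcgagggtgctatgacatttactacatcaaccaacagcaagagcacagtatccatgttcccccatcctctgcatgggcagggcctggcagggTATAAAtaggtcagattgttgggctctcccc
S100a11: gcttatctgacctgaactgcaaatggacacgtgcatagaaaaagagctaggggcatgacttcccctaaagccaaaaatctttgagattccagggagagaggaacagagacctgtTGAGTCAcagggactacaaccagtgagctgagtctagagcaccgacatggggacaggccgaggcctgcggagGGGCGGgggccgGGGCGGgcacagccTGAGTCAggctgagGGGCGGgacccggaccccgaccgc
S100a16: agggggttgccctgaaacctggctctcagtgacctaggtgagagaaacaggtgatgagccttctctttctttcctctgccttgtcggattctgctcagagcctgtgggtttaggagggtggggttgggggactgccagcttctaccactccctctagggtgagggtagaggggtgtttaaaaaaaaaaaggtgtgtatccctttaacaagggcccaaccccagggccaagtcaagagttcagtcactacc

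In S100a4 the TATAAA letters begin 31 bases before the start. S100a11 holds TGAGTCA at 136 and 38 bases before its start and GGGCGG at 64, 52 and 24 bases before it. The windows searched ran from 250 bases before to 50 after a start, and 7 of the 8 genes had an entry, all but S100a10. No other match was found except in the window of the other S100a16 start, which holds TGAATCA at 192 and GGGCGG at 30 bases before it. Of 32851 windows of this length over all genes, 13.6% held TATAAA, 7.81% TGANTCA, 14.7% GGAATG and 35.7% GGGCGG. S100a1 and S100a13 lie head to head, and 204 bases of their windows are shared.

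S100a6 and S100a4 had by far the largest differences between the times. They were near or below 1 TPM in most libraries of 48 h and among the most abundant members at 16 h, with erinacine S and with DMSO. S100a6 (ENSMUSG00000001025, GRCm38 chromosome 3, 90612882 to 90624181), which encodes calcyclin, had 0.215, 0.799 and 1.72 TPM in erinacine S 48 h, 0.949, 2.201 and 0.635 in DMSO 48 h, 28.9, 32.3 and 39.1 in erinacine S 16 h and 30.1, 23.5 and 37.1 in DMSO 16 h. The lowest library of 16 h was above the highest of 48 h in either treatment. The mean level of S100a6 was 36.7-fold lower at 48 h than at 16 h with erinacine S and 24.0-fold lower with DMSO. These folds rest on very low values at 48 h: without erinacine S 48 h replicate 3 the first was 66.0, and without DMSO 48 h replicate 2 the second was 38.1. They were lower, at 26.6 without erinacine S 48 h replicate 1 and 19.2 without DMSO 48 h replicate 3.

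S100a4 (ENSMUSG00000001020, chromosome 3, 90603771 to 90606045) encodes a protein known for binding the heavy chain of nonmuscle myosin and for its expression in fibroblasts and migrating cells. It had 0.245, 0 and 0 TPM in erinacine S 48 h, 0, 0.844 and 0.351 in DMSO 48 h, 13.3, 18.1 and 20.6 in erinacine S 16 h and 17.0, 9.62 and 21.7 in DMSO 16 h. Every 16 h library was thus far above every 48 h library, and 3 of the 6 libraries of 48 h list the gene at 0. None of 10 genes checked, among them Actb, Gapdh and Tubb3, was listed at 0 in any library. That check does not show what a 0 means for a gene of low level. With DMSO the mean was 40.5-fold lower at 48 h, 91.9-fold lower without DMSO 48 h replicate 2 and 27.0-fold lower without DMSO 48 h replicate 1.

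**Figure D1:**
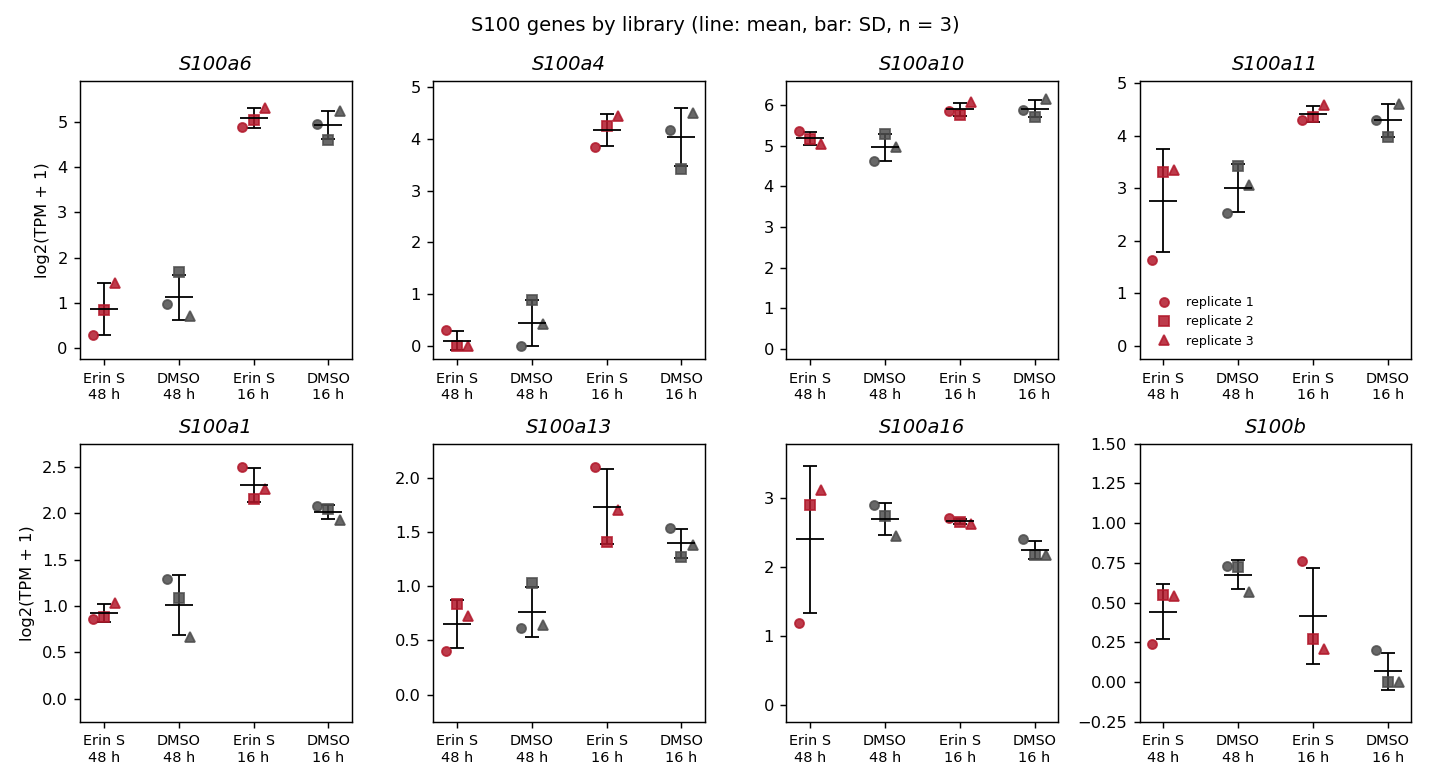
Expression of the 8 S100 genes as log2(TPM + 1) in each library, in panels by gene, with symbols for the replicate number, lines for the group mean and bars for the SD (n = 3). S100a6 and S100a4 stand near the bottom at 48 h and high at 16 h, while S100a16 at 16 h lies within the range of 48 h.

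S100a10 and S100a11, the members best known as annexin partners, were also lower at 48 h, by less. S100a10 (ENSMUSG00000041959, chromosome 3, 93555080 to 93564643), whose protein no longer binds calcium and instead joins annexin A2 in a stable complex, was the most abundant member in all 4 groups. Its levels were 39.8, 34.7 and 31.6 TPM in erinacine S 48 h, 23.6, 38.2 and 30.2 in DMSO 48 h, 57.2, 52.9 and 66.3 in erinacine S 16 h and 57.8, 51.5 and 69.5 in DMSO 16 h. No library of 48 h reached the lowest of 16 h, and the mean was 1.66-fold lower at 48 h with erinacine S and 1.94-fold lower with DMSO.

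S100a11 (ENSMUSG00000027907, chromosome 3, 93520488 to 93526287) encodes a partner of annexin A1. Erinacine S 48 h libraries held 2.11, 8.96 and 9.21 TPM of it and DMSO 48 h libraries 4.75, 9.74 and 7.34, against 18.8, 19.4 and 22.9 TPM in erinacine S 16 h and 18.8, 14.8 and 23.3 in DMSO 16 h. The times did not overlap, and erinacine S 48 h replicate 1 was the lowest library. The mean was 3.01-fold lower at 48 h with erinacine S and 2.61-fold lower with DMSO.

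S100a1 and S100a13 are low-abundance members whose annotated genes lie head to head. S100a1 (ENSMUSG00000044080, chromosome 3, 90511034 to 90514392, minus strand), known from heart muscle as a regulator of calcium pumps and release channels, had 0.820, 0.837 and 1.04 TPM in erinacine S 48 h, 1.45, 1.12 and 0.581 in DMSO 48 h, 4.67, 3.44 and 3.79 in erinacine S 16 h and 3.21, 3.13 and 2.80 in DMSO 16 h. S100a13 (ENSMUSG00000042312, chromosome 3, 90514435 to 90524581, plus strand), which takes part in the release of the growth factor FGF1, had 0.323, 0.782 and 0.650 TPM in erinacine S 48 h, 0.532, 1.04 and 0.558 in DMSO 48 h, 3.29, 1.66 and 2.25 in erinacine S 16 h and 1.91, 1.41 and 1.60 in DMSO 16 h. For each gene all 48 h libraries were below all 16 h libraries. Their mean levels at 48 h were 4.41-fold and 4.10-fold lower with erinacine S, for S100a1 and S100a13 in that order, and 2.90-fold and 2.31-fold lower with DMSO.

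S100a16 and S100b did not share this pattern. S100a16 (ENSMUSG00000074457, chromosome 3, 90537254 to 90543151), a widely expressed member, had 1.26, 6.46 and 7.64 TPM in erinacine S 48 h, 6.47, 5.63 and 4.42 in DMSO 48 h, 5.50, 5.26 and 5.16 in erinacine S 16 h and 4.26, 3.51 and 3.497 in DMSO 16 h. With DMSO all 3 libraries of 48 h were higher than those of 16 h, and with erinacine S replicate 1 of 48 h lay below and the other 48 h libraries above the 16 h libraries. On the scale of log2(TPM + 1) the mean of S100a16 was 0.26 lower at 48 h with erinacine S and 0.44 higher with DMSO, and without erinacine S 48 h replicate 1 the first difference was 0.35, higher at 48 h.

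S100b (ENSMUSG00000033208, chromosome 10, 76253853 to 76261159), the astrocyte protein of the family, was below 1 TPM in every library. Its values were 0.182, 0.463 and 0.453 TPM in erinacine S 48 h, 0.661, 0.651 and 0.483 in DMSO 48 h, 0.699, 0.207 and 0.155 in erinacine S 16 h and 0.1501, 0 and 0 in DMSO 16 h. It overlaps Dip2a, a gene of the opposite strand with a mean of 44.0 TPM, and although the library kit was strand-specific, the strand setting of the counting is not given in the sources used here, so reads of these genes cannot be told apart if strand was ignored. At this level, and with the depth unknown, the S100b values are given without a fold between the times.

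On the log2(TPM + 1) scale, the 7 members with a mean of at least 1 TPM had a median difference of -1.38 with erinacine S and -1.002 with DMSO, 48 h minus 16 h, where the medians of all 15623 genes of that level were -0.025 and -0.027. Of these 7 members, 6 were lower at 48 h without overlap in each treatment. Among all genes of that level 23.7% were lower without overlap with erinacine S and 26.4% with DMSO. Because the members were chosen for this contrast, the counts describe them and carry no test. The level of 1 TPM also bears on them. S100a4 and S100a13 had means below 1 TPM in both groups of 48 h and met that level through their 16 h values. S100a1 and S100a6 were close to it at 48 h. Their means were 0.900 and 0.911 TPM in erinacine S 48 h and 1.05 and 1.26 in DMSO 48 h, in that order. S100b, left out by the level of 1 TPM, was higher in all DMSO libraries of 48 h than in those of 16 h. S100a6 had differences of -4.24 with erinacine S and -3.82 with DMSO, S100a4 of -4.07 with erinacine S and -3.59 with DMSO, and the next largest were those of S100a11, -1.64 with erinacine S and -1.30 with DMSO.

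**Figure D2:**
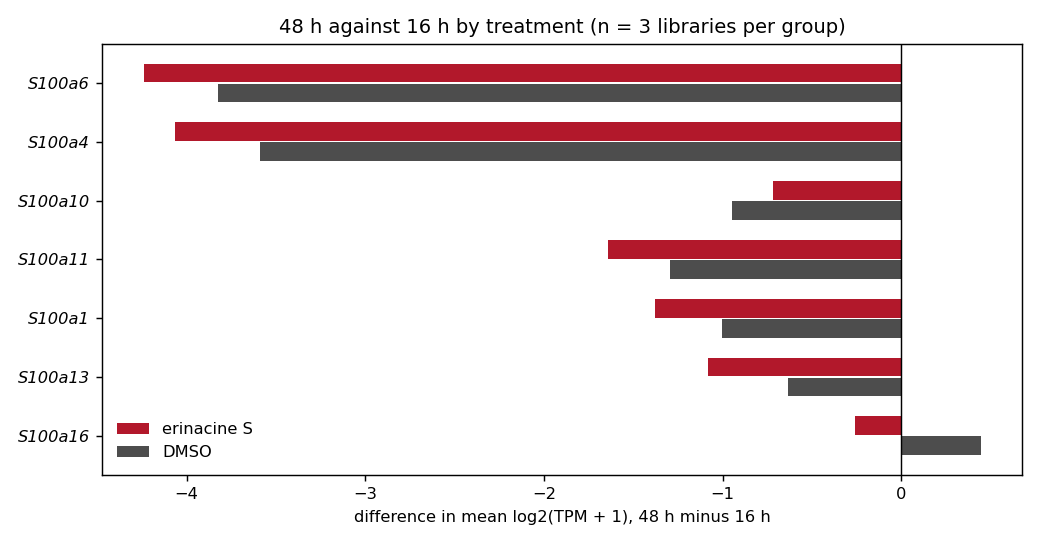
Difference in mean log2(TPM + 1) between 48 h and 16 h for the 7 S100 genes with a mean of at least 1 TPM, as bars for erinacine S and for DMSO (3 libraries per group). The bars of S100a6 and S100a4 pass -3.5 in both treatments, and those of S100a16 point in opposite directions.

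The order of the members by level differed between the times and not between the treatments. In erinacine S 48 h and in DMSO 48 h it ran, from the highest mean, S100a10, S100a11, S100a16, S100a6, S100a1, S100a13, S100b and S100a4. In the groups of 16 h it ran S100a10, S100a6, S100a11, S100a4, S100a16, S100a1, S100a13 and S100b. At 16 h the only neighbours in this order whose libraries overlapped were S100a11 and S100a4, in each treatment. At 48 h the neighbours S100a11 and S100a16, S100a6 and S100a1, S100a13 and S100b, and S100b and S100a4 overlapped in each treatment, S100a16 and S100a6 with erinacine S, and S100a1 and S100a13 with DMSO. The summed level of the 8 genes was 50.1 ± 4.48 TPM in erinacine S 48 h, 47.5 ± 10.8 in DMSO 48 h, 142 ± 15.9 in erinacine S 16 h and 133 ± 26.1 in DMSO 16 h (SD, n = 3 each).

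Within the groups of 16 h and in DMSO 48 h S100a6, S100a4, S100a10 and S100a11 shared their highest library. In DMSO 16 h each of the 4 was highest in replicate 3 and lowest in replicate 2, and in erinacine S 16 h each was highest in replicate 3. In DMSO 48 h each was highest in replicate 2. In erinacine S 48 h this did not hold, as replicate 1 was the highest library for S100a10 and S100a4 and the lowest for S100a6 and S100a11. Relative to its mean the spread among these 4 in DMSO 16 h was widest for S100a4, at 9.62 to 21.7 TPM with DMSO at 16 h. S100a1 and S100a13 were instead highest in replicate 1 in both groups of 16 h. The share of all genes with such orders was not counted, so they are not a trait of these members. Calm2, Neurod6 and Cacybp were also highest in replicate 3 and lowest in replicate 2 of DMSO 16 h, while Map2 was lowest in replicate 3.

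No S100 gene passed the test for erinacine S against DMSO, at 48 h or at 16 h. At 48 h none of the 7 members with a mean of at least 1 TPM passed (limma, Benjamini-Hochberg adjusted p under 0.05 over all genes, lowest adjusted p among them 0.727), none had an unadjusted p under 0.05, while 0.134% of all genes tested passed and 8.96% had such an unadjusted p. The differences, erinacine S minus DMSO on the log2(TPM + 1) scale with SE and 95% interval, were -0.26 ± 0.30 (-0.91 to 0.39) for S100a6, -0.33 ± 0.28 (-0.95 to 0.28) for S100a4 and 0.22 ± 0.16 (-0.13 to 0.57) for S100a10. For S100a11 the value was -0.23 ± 0.39 (-1.08 to 0.61) and for S100a16 it was -0.29 ± 0.38 (-1.11 to 0.53). S100a1 stood at -0.09 ± 0.17 (-0.45 to 0.27) and S100a13 at -0.11 ± 0.20 (-0.54 to 0.32). The intervals of S100a11 and S100a16 were the widest, and both reach below -1 on this scale.

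The libraries of the treatments overlapped at 48 h for each of these 7 members, where 19.3% of all genes tested did not overlap. For S100a11 and S100a16 the lowest library was erinacine S 48 h replicate 1, the library of that time with the lowest glial and microglial markers. Summed microglial markers were also low in erinacine S 48 h replicates 2 and 3, at 10.35 and 13.29 TPM, against 22.76 to 31.52 with DMSO. Without erinacine S 48 h replicate 1 the differences were 0.33 for S100a11, 0.32 for S100a16, 0.03 for S100a6 and 0.02 for S100a13, all positive and none past the threshold. Without DMSO 48 h replicate 2 the values of S100a6 and S100a13 were also positive, at 0.02 and 0.03, and without DMSO 48 h replicate 1 that of S100a1 was 0.05. Summed astrocyte markers were at 49.1 TPM in erinacine S 48 h replicate 1, while the remaining 48 h libraries held 109 to 131 TPM, and the part of this in the S100 values was not tested.

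At 16 h the differences ran mostly the other way in sign. None of the 7 members passed (limma, lowest adjusted p = 1.00) and none had an unadjusted p under 0.05, where 0% of all genes tested passed and 201 genes (1.29%) had an unadjusted p under 0.05. S100a16 was at 0.41 ± 0.38, S100a13 at 0.34 ± 0.20 and S100a1 at 0.29 ± 0.17 (log2 difference, erinacine S minus DMSO, SE), and S100a6 at 0.15 ± 0.30, S100a4 at 0.15 ± 0.28, S100a11 at 0.11 ± 0.39 and S100a10 at -0.01 ± 0.16. The libraries did not overlap for S100a1 and S100a16, which were higher in all 3 erinacine S libraries, while 4.19% of all genes tested did not overlap and 2.62% were higher in that way. S100a4, S100a6 and S100a11 had negative differences without DMSO 16 h replicate 2, at -0.16, -0.01 and -0.05, and S100a10 a positive one without erinacine S 16 h replicate 1 or 2 or DMSO 16 h replicate 3.

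The difference between the effects at 48 h and at 16 h was tested as an interaction. It did not pass for any of the 7 members (limma, adjusted p = 1.00 for each), none had an unadjusted p under 0.05, and 0% of all genes tested passed, with 432 (2.77%) at an unadjusted p under 0.05. The values lay between -0.70 ± 0.53 for S100a16 and 0.23 ± 0.23 for S100a10 (SE). A fit without a filter on low values, over 32347 genes, also gave S100b a value, which did not pass at 48 h (-0.23 ± 0.15, adjusted p = 0.840), at 16 h (0.35 ± 0.15, adjusted p = 1.00) or as an interaction (-0.58 ± 0.21, adjusted p = 0.977). Its unadjusted limma p was 0.143 at 48 h, 0.0385 at 16 h and 0.0189 for the interaction.

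**Figure D3:**
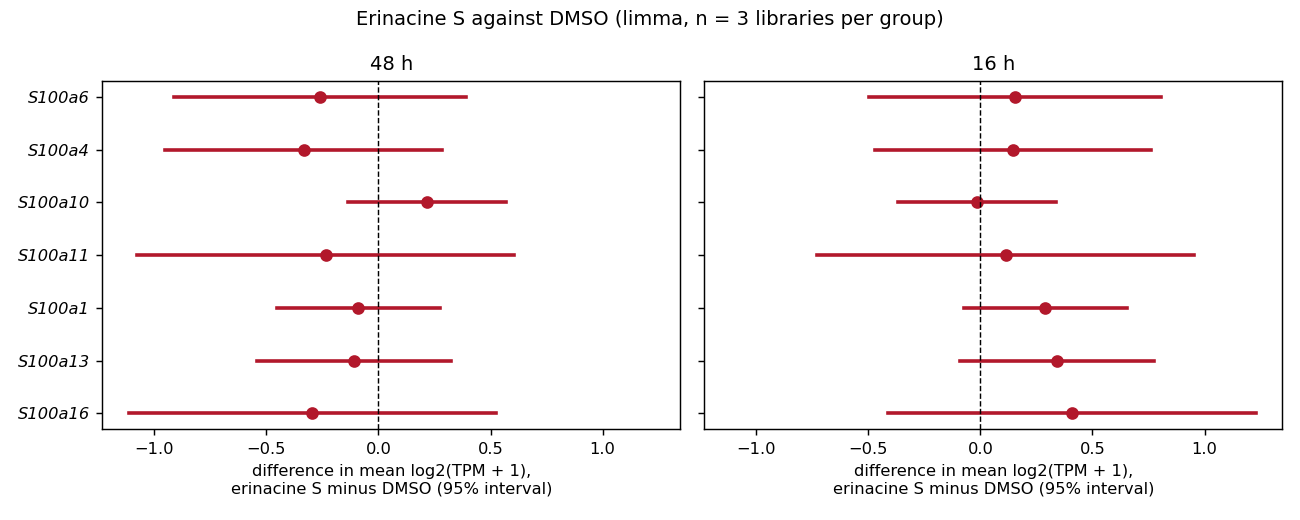
Difference in mean log2(TPM + 1) between erinacine S and DMSO at 48 h (left) and 16 h (right) for 7 S100 genes, as points with 95% intervals from limma (3 libraries per group). Each interval includes 0, and those of S100a11 and S100a16 are the widest.

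The remaining S100 genes of the table were near or at 0. S100a2, S100a5, S100a7a and S100g were listed at 0 in all 12 libraries, and S100a3, S100a14 and S100z stayed below 0.7 TPM. S100a8 and S100a9, the calgranulins of neutrophils and monocytes, were listed at 0 in all 6 libraries of 48 h, and at 16 h they reached 1.74 and 2.61 TPM in DMSO replicate 2. A list of 17 symbols of the wider family, which holds these 9 genes and also the fused-type S100 genes of skin, had 16 rows in the table. Of these only Tchh, the gene of trichohyalin, had a mean of at least 1 TPM, at 1.03. Tchh had log2 differences of -0.11 ± 0.16 at 48 h and -0.19 ± 0.16 at 16 h, erinacine S minus DMSO (SE).

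Along chromosome 3 the members that were lower at 48 h did not form an unbroken run. The block from S100a1 to S100a9 spans 184688 bases (90511034 to 90695721) and holds 16 genes of the table, 6 of them at 0 in all libraries and none outside the members with a mean of at least 1 TPM. S100a16, which was not lower with DMSO, lies between S100a13 and S100a4. S100a11 and S100a10 lie apart from this block, beyond a stretch that holds skin barrier genes. Between S100a1 and S100a10 the table lists 121 genes, of which 68 were at 0 throughout and 9 that are not members had a mean of at least 1 TPM.

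Of those 9 genes, Lor, which encodes loricrin of the skin barrier, was higher at 48 h, with log2 differences of 1.38 with erinacine S and 1.21 with DMSO (limma, adjusted p = 0.0014 and 0.0026). Gm4202 was higher too, by 0.49 with erinacine S and 0.50 with DMSO (adjusted p = 0.000307 and 0.000239), and Gm9774 by 0.29 with erinacine S and 0.32 with DMSO (adjusted p = 0.0333 and 0.0187). Sprr2d, a skin barrier gene, was lower with DMSO (limma, -1.47, adjusted p = 0.036) and did not pass with erinacine S (-0.73, adjusted p = 0.277). Sprr2d had means below 1 TPM in both groups of 48 h and met that level through its 16 h values. The other 5, namely Gm35013, Mif-ps3, Gm5850, Gm5851 and Tchh, did not pass. Gm4202 and 4 others of the 9 are processed pseudogenes, whose reads can be shared with a parent gene, so their values are uncertain.

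**Figure D4:**
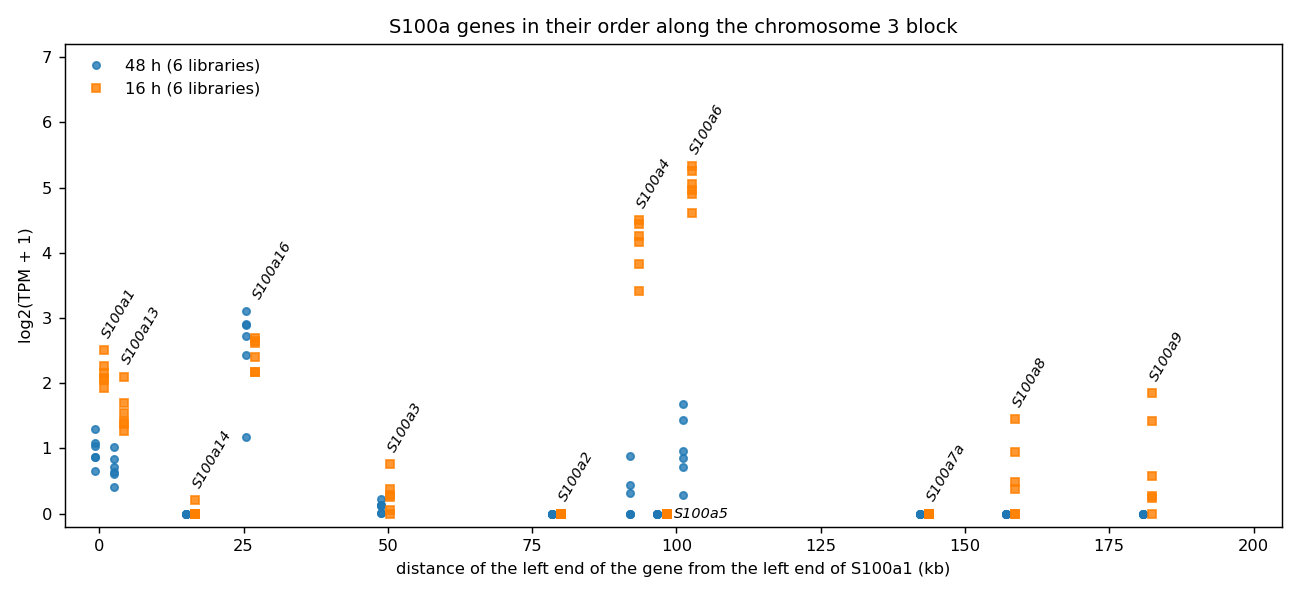
Expression as log2(TPM + 1) of the S100a genes against the distance of each gene's left end from that of S100a1 in kilobases, with circles for the 6 libraries of 48 h and squares for the 6 of 16 h. S100a4 and S100a6 show the widest gap between the times, and S100a16, between S100a13 and S100a4, shows overlap.

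Binding partners of S100 proteins rose and fell in similar numbers with erinacine S, and more rose than fell with DMSO. Of 31 partners listed, 27 had a mean of at least 1 TPM, and at 48 h against 16 h 8 rose and 7 fell with erinacine S, and 9 rose and 5 fell with DMSO (limma, adjusted p under 0.05). Over all genes 30.6% passed with erinacine S and 32.7% with DMSO, where 15.1% rose and 15.5% fell with erinacine S, and 16.1% rose and 16.6% fell with DMSO. The median log2 difference of the list was -0.03 with erinacine S and -0.07 with DMSO. This list and the next were drawn up with earlier results of these data known.

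Among the partners that fell in each treatment were the annexin A1 gene and Ahnak. Anxa1, whose protein binds S100a11, had 0.416, 0.745 and 0.663 TPM in erinacine S 48 h and 0.752, 1.38 and 0.642 in DMSO 48 h, against 6.05, 4.51 and 5.82 in erinacine S 16 h and 5.24, 4.03 and 5.96 in DMSO 16 h. Its log2 differences were -2.004 ± 0.18 with erinacine S and -1.67 ± 0.18 with DMSO (SE; adjusted p = 2.804e-05 and 8.303e-05). Ahnak, whose giant protein is held at the membrane by S100a10 and annexin A2, fell by 1.19 with erinacine S and by 0.92 with DMSO on the log2 scale (limma, adjusted p = 0.00079 and 0.00286). The level of 1 TPM bears on these calls too. Anxa1 and Ahnak had means below 1 TPM in both groups of 48 h and met that level through their 16 h values.

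Annexin A2 itself, the partner of S100a10, had 2.87, 14.8 and 12.8 TPM in erinacine S 48 h, 11.1, 13.98 and 10.1 in DMSO 48 h, 22.9, 20.8 and 24.5 in erinacine S 16 h and 20.2, 18.9 and 24.4 in DMSO 16 h. Anxa2 was lower in all 48 h libraries, and its fall passed with erinacine S (-1.33 ± 0.39, adjusted p = 0.0238) but not with DMSO (-0.80 ± 0.39, adjusted p = 0.135). Its lowest library was again erinacine S 48 h replicate 1. The SE is shared by the 4 groups, though their spread was unlike. On the log2 scale the SD of Anxa2 was 1.12 in erinacine S 48 h and 0.222 in DMSO 48 h. It was 0.112 in erinacine S 16 h and 0.183 in DMSO 16 h. The falls with erinacine S and with DMSO did not differ past the threshold as an interaction. Cacybp, the calcyclin-binding protein gene named for S100a6, did not pass. It had 152 to 167 TPM with erinacine S at 48 h, 153 to 160 with DMSO at 48 h, 145 to 178 with erinacine S at 16 h and 150.2 to 184 with DMSO at 16 h. Its log2 differences were -0.03 ± 0.09 with erinacine S and -0.07 ± 0.09 with DMSO (SE; adjusted p = 0.808 and 0.606). The myosin gene Myh9, target of S100a4, and the receptor gene Ager did not pass in either treatment.

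Among the partners that rose were genes of a receptor, of channels and of a calcium pump. The serotonin receptor gene Htr1b, whose protein binds S100a10, had log2 differences of 1.10 with erinacine S and 1.14 with DMSO, and the potassium channel gene Kcnk3, another S100a10 partner, of 0.89 with erinacine S and 0.97 with DMSO. Atp2a2, the calcium pump of the endoplasmic reticulum, was at 0.38 with erinacine S and 0.59 with DMSO, and Ryr2, a calcium release channel, at 0.77 with erinacine S and 0.93 with DMSO. All of these passed in both treatments (limma, adjusted p between 0.000169 and 0.00613).

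Among calcium sensors and buffers outside the S100 family, more rose than fell at 48 h. Of 36 EF-hand genes listed, 31 had a mean of at least 1 TPM, and 15 rose and 2 fell with erinacine S while 15 rose and 4 fell with DMSO, against the shares over all genes given above. The median log2 difference was 0.27 in each treatment. Vsnl1, the neuronal sensor visinin-like protein 1, had 45.2, 22.5 and 22.8 TPM in erinacine S 48 h and 30.0, 29.7 and 31.1 in DMSO 48 h, against 10.1, 8.42 and 12.5 in erinacine S 16 h and 11.5, 8.93 and 14.7 in DMSO 16 h. Its log2 differences were 1.40 ± 0.24 with erinacine S and 1.33 ± 0.24 with DMSO (SE; adjusted p = 0.00152 and 0.00172). The neuronal sensor gene Ncald rose by 1.44 with erinacine S and 1.66 with DMSO, Caln1 by 1.77 in each treatment and the potassium channel subunit gene Kcnip4 by 1.33 with erinacine S and 1.65 with DMSO. Calm3, a calmodulin gene, rose by 0.72 with erinacine S and 0.68 with DMSO. Necab3 fell by 1.03 with erinacine S and by 0.95 with DMSO.

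**Figure D5:**
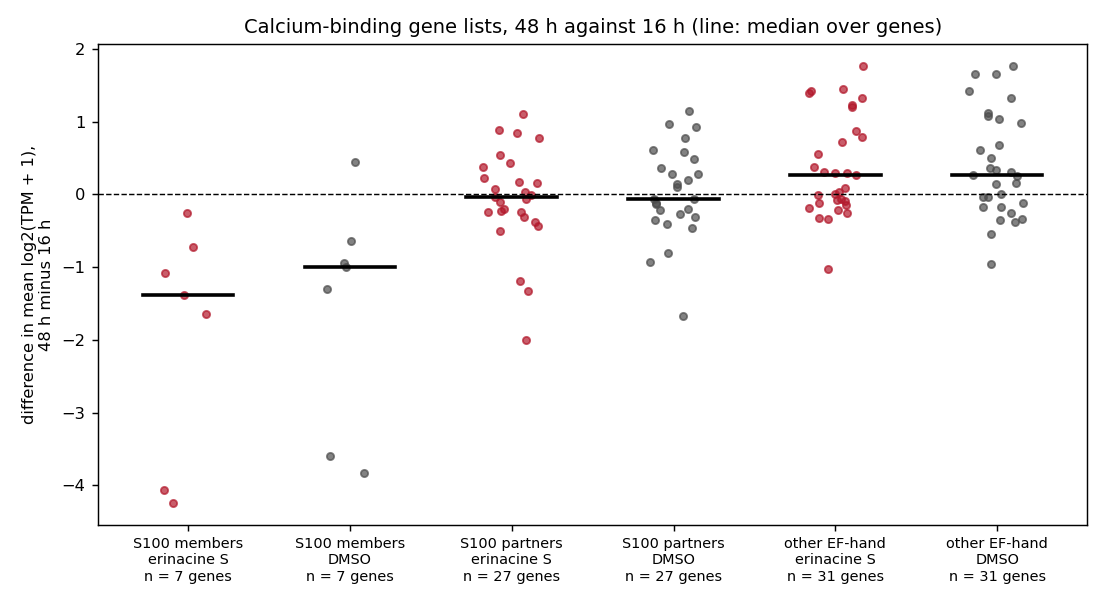
Difference in mean log2(TPM + 1) between 48 h and 16 h for each gene of 3 lists (7 S100 members, 27 S100 partners and 31 other EF-hand genes with a mean of at least 1 TPM), with erinacine S in red left of DMSO in grey and lines for the medians. The median is below -0.9 for the S100 members, close to 0 for the partners and 0.27 for the other EF-hand genes.

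Neither of these lists held a gene that erinacine S changed past the threshold at 48 h, at 16 h or as an interaction (limma, adjusted p under 0.05). At 48 h 2 of the 27 partners and 7 of the 31 EF-hand genes had an unadjusted p under 0.05, against 8.96% of all genes tested, and none did at 16 h or for the interaction. At 48 h the partners with the smallest p were Plat, the plasminogen activator gene (-0.50 ± 0.12, adjusted p = 0.175), Dlc1 (-0.51 ± 0.15) and Myh9 (-0.25 ± 0.12), and the EF-hand genes were Cetn2 (0.38 ± 0.11, adjusted p = 0.282), Hpca (0.41 ± 0.12) and Tesc (-0.52 ± 0.17) (log2 difference, SE). At 16 h they were Plat at -0.20, Atp2a2 at 0.12 and Ager at -0.30, and Hpcal1 at -0.17, Tesc at -0.25 and Hpcal4 at 0.22. For the interaction they were Dlc1 at -0.45, Atp2a2 at -0.21 and Plat at -0.30, and among the EF-hand genes Hpca at 0.33 and Kcnip4 at -0.32.

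The summed level of fibroblast markers, like S100a4 and S100a6, was lower at 48 h in each treatment, though not every marker was. Of 8 fibroblast and meningeal markers, 2 had a mean of at least 1 TPM, and their summed level was 1.11 to 3.06 TPM with erinacine S at 48 h, 3.58 to 4.90 with DMSO at 48 h, 8.60 to 9.05 with erinacine S at 16 h and 6.57 to 9.50 with DMSO at 16 h. Dcn, the decorin gene of fibroblasts, had 0.201, 0.205 and 0.045 TPM in erinacine S 48 h and 0.1, 0.381 and 0.336 in DMSO 48 h, against 2.47, 2.62 and 3.12 in erinacine S 16 h and 2.74, 1.98 and 3.20 in DMSO 16 h, and passed in each treatment. Dcn met the level of 1 TPM through its 16 h values. Ptgds passed with erinacine S (log2 difference -1.05, limma adjusted p = 0.0291) and not with DMSO (-0.27, adjusted p = 0.558). The collagen genes Col1a1 and Col1a2 stayed below 1 TPM in every library and Foxc1 and Foxd1 below 0.5. With DMSO the mean of Col1a2 was 0.499 TPM at 48 h against 0.342 at 16 h and that of Foxd1 0.210 at 48 h against 0.102 at 16 h, both higher at 48 h. The summed level of 6 blood markers (4 of 6 with a mean of at least 1 TPM) overlapped between the times with erinacine S and not with DMSO. It came to 11.2 to 28.8 TPM with erinacine S at 48 h, 3.44 to 13.6 with DMSO at 48 h, 21.6 to 182 with erinacine S at 16 h and 31.1 to 63.4 with DMSO at 16 h. Hbb-bs was lower at 48 h past the threshold with erinacine S and with DMSO (limma, adjusted p = 0.0189 and 0.00734). Hbb-bt passed with DMSO only (limma, adjusted p = 0.0243), and Hba-a1 and Hba-a2 passed in neither treatment.

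Microglial markers, 6 of 9 with a mean of at least 1 TPM, summed to 1.60 to 13.3 TPM with erinacine S at 48 h, 22.8 to 31.5 with DMSO at 48 h, 27.98 to 46.2 with erinacine S at 16 h and 26.0 to 49.4 with DMSO at 16 h. Of these 6, C1qc alone passed for erinacine S against DMSO at 48 h (log2 difference -1.48, limma adjusted p = 0.0413). The summed level of 6 endothelial markers was 0.542 to 0.961 TPM with erinacine S at 48 h, 0.817 to 1.28 with DMSO at 48 h, 1.73 to 2.22 with erinacine S at 16 h and 1.20 to 2.19 with DMSO at 16 h, with Tek, Flt1, Cdh5 and Cldn5 below 0.5 in every library. Mural markers, 2 of 7 at that level, summed to 3.25 to 22.7 TPM with erinacine S at 48 h, 15.9 to 26.8 with DMSO at 48 h, 9.57 to 21.6 with erinacine S at 16 h and 9.54 to 25.9 with DMSO at 16 h. The summed level of the 7 astrocyte markers, 6 of them at a mean of at least 1 TPM, did not overlap between the times with DMSO and did with erinacine S. It was 49.1 to 131 TPM with erinacine S at 48 h, 109 to 124 with DMSO at 48 h, 56.3 to 72.0 with erinacine S at 16 h and 54.4 to 72.5 with DMSO at 16 h. The part of these cells in the S100 levels was not tested, and in such bulk samples fewer cells of a type and less RNA per cell cannot be told apart.

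Profiles most like those of S100a6 and S100a4 across the 12 libraries were sought among the 15623 genes with a mean of at least 1 TPM, as the root mean square difference of log2(TPM + 1) after centring each gene on its own mean. For S100a6, which itself varied by 2.05 around its mean on this measure, the nearest were Cxcl10 (0.35), Prl2c2 (0.39), Bst2 (0.56), Isg15 (0.59) and Ifitm3 (0.59). S100a4, with 1.95 around its mean, had Cxcl10 (0.39), Prl2c2 (0.41), Bst2 (0.54), Rsad2 (0.57) and Fam159b (0.57). S100a4 and S100a6 differed from each other by 0.37. Cxcl10 had 0.140 to 0.850 TPM over the 6 libraries of 48 h and 13.1 to 20.0 over those of 16 h. Prl2c2, which has near-identical copies among which reads may be split, was listed at 0 in all 6 libraries of 48 h and had 16.3 to 28.1 TPM at 16 h.

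S100b varied by 0.27 around its mean, and among its nearest profiles were those of Sdf2l1 (0.11), Sdc1 (0.12), Ccdc24 (0.14) and Sash1 (0.14). Among the members, S100a1 and S100a13 were the closest pair at 0.26, followed by S100a10 and S100a13 at 0.29. The measure is not scaled to how far a gene varies, so genes that vary little can come out close. S100a4 and S100a6 differed by 0.37 while varying by 1.95 and 2.05 around their means.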

How the data were processed

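RNA of primary cortical neurons was sequenced in 12 libraries, 3 in each of 4 groups, with groups and replicate numbers from the sample titles. The submitters' processing notes name the build GRCm38.p5 and, without settings, StringTie 2.1.3, HISAT2, Trimmomatic 0.36, bcl2fastq 2.20, SAMtools and FastQC. Annotation release and strand setting were not given in the sources used here. TPM per gene were deposited by the authors with 0.0001 in place of 0, read here as 0. TPM keep no read depth, so precision is given by the spread between libraries.

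The test was limma 3.58.1 (R 4.3.3; eBayes with a trend, 1 mean per group, all 12 libraries) on log2(TPM + 1), two-sided, over the 15623 genes whose TPM averaged 1 or more, with Benjamini-Hochberg adjustment over these genes and a threshold of 0.05. Fold changes on this scale understate those of low genes, and fold values of members are ratios of mean TPM. The procedure was checked on simulated data. The members, lists and motifs were chosen with earlier results of these data known. Named were all members, listed genes that passed or had the 3 smallest p in a tested comparison (part of those that passed only between the times), the 5 nearest profiles of S100a6, S100a4 and S100b, and expressed genes in the S100a span. Some genes that this rule names are not reported here.

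Libraries with the same replicate number deviated together at 16 h (r = 0.480, 0.185 and 0.510 across genes), so the numbers pair those libraries by the data; at 48 h the values were -0.0219, 0.107 and -0.192. Promoter sequences are RefSeq's on GRCm38.p6, and all 8 member intervals equal those of GENCODE M21.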

Additional observations from a re-analysis of the deposited data

Results flagged for a closer look

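S100b had a mean of 0.366 TPM in erinacine S 48 h and 0.598 in DMSO 48 h, and of 0.354 in erinacine S 16 h and 0.050 in DMSO 16 h. It stood out because all erinacine S libraries were below all DMSO libraries at 48 h and above them at 16 h. Among the 15623 genes with a mean of at least 1 TPM, which do not include S100b, 19.3% did not overlap between the treatments at 48 h and 4.19% at 16 h. The share of genes without overlap in opposite directions at both times was not counted. At 16 h the lowest erinacine S library of S100b had 0.1554 TPM and the highest DMSO library 0.1501. All S100b values are below 1 TPM at an unknown depth and may hold reads of Dip2a on the opposite strand if strand was ignored in counting, which was not tested. The test of that difference, made without a filter on low values, did not pass (limma, interaction -0.58 ± 0.21 on the log2 scale, SE, adjusted p = 0.977).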

How the results depend on the processing

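No S100 member passed in any alternative for erinacine S against DMSO at 48 h (102 values over 15 alternatives, lowest adjusted p = 0.506), at 16 h (102 values, lowest adjusted p = 0.999) or for the interaction (137 values over 20 alternatives, lowest adjusted p = 0.955; limma). With the replicate block within each time, 17, 0 and 1 genes passed at 48 h, at 16 h and for the interaction, and no member's call changed. Over all libraries the replicate block gave 4845 genes between the times with erinacine S and 5173 with DMSO. The count at 48 h, 21, was 12 with only the 6 libraries compared. At 16 h, 2 genes passed without a filter, and for the interaction 1 passed with a pseudocount of 0.1. Leaving out 1 library gave 9 to 114 genes at 48 h (9 without DMSO replicate 1 or 3, 114 without erinacine S replicate 1), 0 to 0 at 16 h and 0 to 0 for the interaction. Between the times it gave 3110 to 4886 genes with erinacine S, against 4783 with all libraries, and 3401 to 4585 with DMSO, against 5107. The lowest counts came without erinacine S 16 h replicate 2 and without DMSO 48 h replicate 1.

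Leaving out 1 library turned the sign of uncalled differences. At 48 h the ranges were -0.55 to 0.028 for S100a6, -0.53 to 0.33 for S100a11, -0.20 to 0.025 for S100a13, -0.65 to 0.32 for S100a16 and -0.27 to 0.052 for S100a1. At 16 h they were -0.11 to 0.10 for S100a10, -0.16 to 0.38 for S100a4, -0.0087 to 0.31 for S100a6 and -0.045 to 0.27 for S100a11. For the interaction S100a11 ranged over -0.64 to 0.22, and between the times with erinacine S S100a16 over -0.62 to 0.35. No other setting turned a member's sign. A pseudocount of 0.1 in place of 1 gave S100a6 differences between the times of -5.38 with erinacine S and -4.62 with DMSO, and 5 gave -2.70 with erinacine S and -2.48 with DMSO. For S100a4 a pseudocount of 0.1 gave -6.83 with erinacine S and -5.46 with DMSO, and 5 gave -2.12 with erinacine S and -1.93 with DMSO. With the depth unknown, no detection limit can be given for S100a4 and S100b where they are listed at 0.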
